A study of Mus musculus with 11 samples.

Results

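Of the 2886 Foxp3 peaks mapped in mouse regulatory T (Treg) cells, 321 (11.1%, 95% interval 9.998 to 12.3) carried strong Cbfb. They were chosen by the Treg Cbfb library: the midpoint of the peak lay within 300 bp of one of the 10000 Cbfb positions with the highest score in the authors' list of 161760. The other 2565 Foxp3 peaks served for comparison. Chromatin immunoprecipitation followed by sequencing (ChIP-seq) had been done on CD4+ T cells from lymph nodes and spleen of mice about 8 weeks old, sorted on a green fluorescent reporter of Foxp3. The Foxp3-positive cells are called Treg here and the Foxp3-negative cells CD4. Both populations came straight from the animal, and the labels name no strain, sex or treatment and do not say how many mice were pooled. The Foxp3 list was made by the authors from combined Treg replicates (3 libraries from 2 replicates). Cbfb was read in Treg cells, and Elf1 and Ets1 in Treg and in CD4 cells, each in 1 library. The CD4 Cbfb library, described as low in quality, was not analysed here. Positions are in mouse build mm9, as deposited.

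Foxp3 is the forkhead transcription factor that specifies Treg cells. Cbfb does not bind DNA itself: it is the shared partner that stabilises Runx proteins (Runx1, Runx2 and Runx3) on DNA, and Runx1 with Cbfb is known to interact with Foxp3 and to be needed for stable Foxp3 expression. Elf1 and Ets1 belong to the ETS family, whose DNA-binding domain reads a GGAA core. Ets1 is known to bind DNA cooperatively with Runx1 at composite sites of T cell enhancers, and Elf1 comes from a separate branch of the family.

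Foxp3 peaks with strong Cbfb carried Ets1 more often than other Foxp3 peaks, in both cell types, while for Elf1 the gap was smaller. Ets1 was compared first in Treg cells, using the 10000 Ets1 positions with the highest score and the same 300 bp. Such a position lay at 250 of the 321 peaks with strong Cbfb (77.9%, 72.9 to 82.3) and at 1510 of the other 2565 (58.9%, 56.9 to 60.8), with 61.0% over all Foxp3 peaks together. The difference was 19.0 percentage points (95% interval 13.8 to 23.6). In CD4 cells, which lack Foxp3, Ets1 was present at 271 of the same 321 places (84.4%, 80.0 to 88.2) and at 1776 of the others (69.2%, 67.4 to 71.0), against 70.9% of all Foxp3 peaks. There the difference was 15.2 points (10.5 to 19.2).

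Treg Elf1 was found at 189 peaks with strong Cbfb (58.9%, 53.3 to 64.3) and at 1381 others (53.8%, 51.9 to 55.8), near the 54.4% of all Foxp3 peaks. The interval of that difference, 5.04 points, ran from -0.747 to 10.6 and so included 0. CD4 Elf1 was found at 210 (65.4%, 59.9 to 70.6) and at 1498 (58.4%, 56.5 to 60.3), with 59.2% of all Foxp3 peaks, a difference of 7.02 points (1.34 to 12.4). That interval took in 0 in 4 of 16 alternatives: Elf1 within 100 bp (3.80, -2.00 to 9.51), the 5000 highest Cbfb scores (5.67, -1.09 to 12.0), Cbfb by fold (4.90, -9.07 to 16.9) and Cbfb of at least 4-fold (3.57, -3.37 to 10.1). The intervals of the Ets1 and Elf1 differences did not overlap in Treg and did overlap in CD4. Every interval in these comparisons counts peaks only. With 1 library per factor and cell type there is no replicate check of any of them, so no p-values are given, and peaks close together are not independent.

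**Figure D1:**
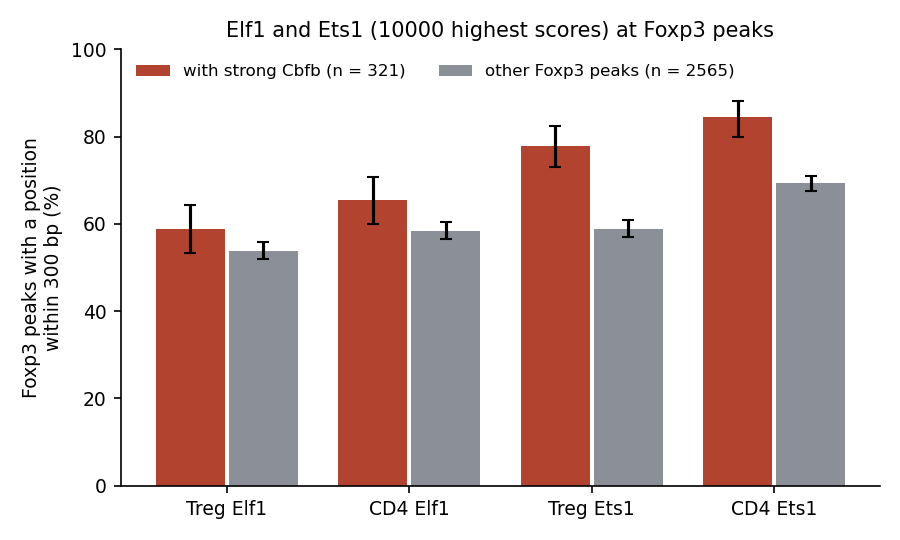
Share of Foxp3 peaks (%) with an Elf1 or Ets1 position among the 10000 highest scores of its library within 300 bp of the midpoint, for peaks with strong Cbfb (red, n = 321) and for the other Foxp3 peaks (grey, n = 2565); bars are shares and error bars exact 95% intervals. The bars stand apart for Ets1 (77.9 against 58.9% in Treg, 84.4 against 69.2% in CD4) and lie close together for Treg Elf1 (58.9 against 53.8%).

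Because Elf1 and Ets1 often sit at the same Foxp3 peak, each was also compared with the other held fixed. Among Foxp3 peaks that had Treg Elf1, Ets1 was present at 160 of 189 with strong Cbfb (84.7%) and at 915 of 1381 others (66.3%), a difference of 18.4 points (12.1 to 23.5). Among peaks without Treg Elf1 the Ets1 shares were 90 of 132 (68.2%) and 595 of 1184 (50.3%), a difference of 17.9 points (9.10 to 25.8). The Ets1 difference was of similar size with Elf1 and without it. Turned around, among peaks with Treg Ets1 the Elf1 shares were 64% and 60.6%, a difference of 3.40 points (-3.18 to 9.62), and among peaks without Ets1 they were 40.8 and 44.2%, a difference of -3.33 points (-14.4 to 8.66).

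The CD4 libraries gave the same order. With CD4 Elf1 present, Ets1 was found at 197 of 210 peaks with strong Cbfb (93.8%) and at 1224 of 1498 others (81.7%), 12.1 points apart (7.58 to 15.4). Without CD4 Elf1 the shares were 66.7 and 51.7%, 14.9 points apart (5.26 to 23.6). Given CD4 Ets1, Elf1 differed by 3.77 points (-2.20 to 9.20), and without it by -8.73 points (-19.4 to 5.21). Peaks that had Elf1 without Ets1 were correspondingly rare among those with strong Cbfb. In Treg they numbered 29 of 321 (9.03%, 6.13 to 12.7) and 466 of the others (18.2%), against 17.2% of all Foxp3 peaks, and in CD4 they numbered 13 (4.05%, 2.17 to 6.83) and 274 (10.7%), against 9.94% of all.

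The relation to Ets1 was graded. Each Foxp3 peak was placed by the rank of its highest Ets1 position, rank 1 being the highest score in the library. Where Treg Ets1 ranked 1 to 1000, 79 of 317 Foxp3 peaks had strong Cbfb (24.9%, 20.3 to 30.1). The share was 15.5% (12.3 to 19.1) at ranks between 1000 and 2500, 12.6% (9.86 to 15.7) between 2500 and 5000 and 7.41% (5.18 to 10.2) between 5000 and 10000. Past rank 20000 it was 5.71% (3.99 to 7.89), and where the Ets1 list had none within 300 bp it was 6.85% (3.88 to 11.0). CD4 Ets1 also declined with rank, though not at every step, from 87 of 374 peaks (23.3%, 19.1 to 27.9) at ranks 1 to 1000 to 4.72% (2.72 to 7.55) past rank 20000 and 4 of 131 (3.05%, 0.838 to 7.63) with no Ets1 position.

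No such decline from the top ranks was seen for Elf1. At Treg Elf1 ranks 1 to 1000, 22 of 188 Foxp3 peaks had strong Cbfb (11.7%, 7.48 to 17.2), about the 11.1% of the whole list. At ranks between 2500 and 5000 the share was 14.0% (11.1 to 17.3), and where the Treg Elf1 list had none within 300 bp it was 7.27% (4.89 to 10.3). For CD4 Elf1 the top class had one of the lower shares, 11 of 162 (6.79%, 3.44 to 11.8), and the class between 2500 and 5000 the highest, 81 of 498 (16.3%, 13.1 to 19.8). The interval of the top class held the 11.1% of all Foxp3 peaks in both cell types.

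**Figure D2:**
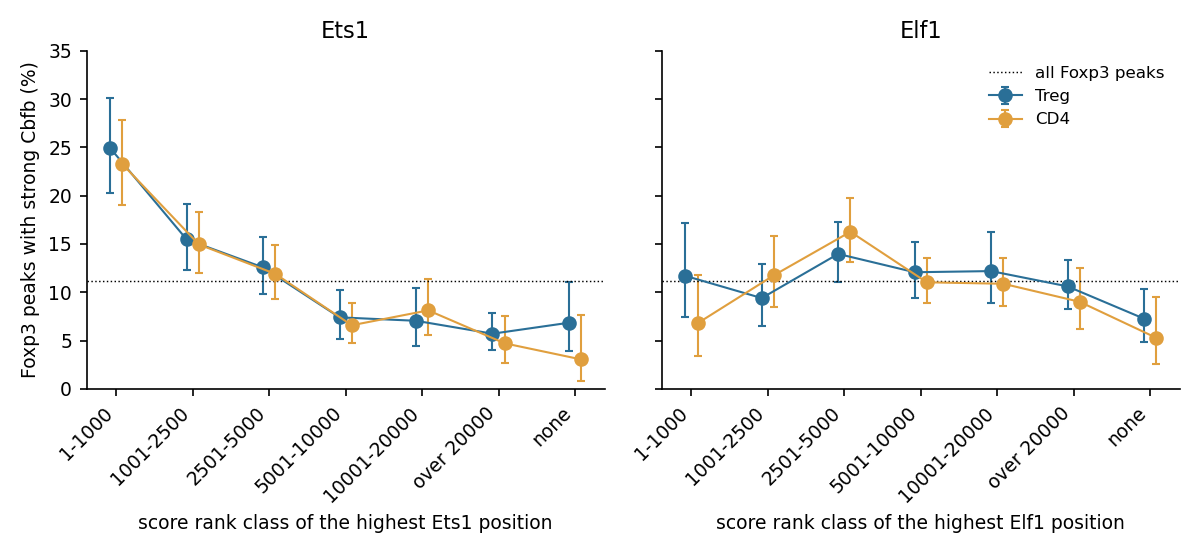
Share of Foxp3 peaks with strong Cbfb (%, vertical axis) by the rank class of the highest Ets1 (left) or Elf1 (right) position within 300 bp, in Treg (blue) and CD4 (orange); error bars are exact 95% intervals and the dotted line is the 11.1% of all Foxp3 peaks. The share declines from 24.9% (Treg) and 23.3% (CD4) at Ets1 ranks 1 to 1000 to 5.71 and 4.72% past rank 20000, and stays between 5.29 and 16.3% in all classes of Elf1.

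Foxp3 peaks with top-ranked Ets1 in both cell types were richest in Cbfb. This split was made after the rank classes had been seen. Of 153 Foxp3 peaks with Ets1 among the first 1000 ranks in Treg and in CD4, 47 had strong Cbfb (30.7%, 23.5 to 38.7). Where only the Treg library reached that rank the share was 32 of 164 (19.5%, 13.7 to 26.4), and where only the CD4 library did it was 40 of 221 (18.1%, 13.3 to 23.8). The remaining 2348 peaks had 8.60% (7.50 to 9.81). For Elf1 the 104 peaks that ranked in the first 1000 in both cell types had strong Cbfb in 10 cases (9.62%, 4.71 to 17.0), close to the 11.3% (10.1 to 12.6) of the 2640 peaks that did so in neither. It was 12 of 84 (14.3%, 7.61 to 23.6) where only the Treg library did and 1 of 58 (1.72%, 0.0436 to 9.24) where only the CD4 library did.

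Read from the Cbfb side, Ets1 was most frequent where Cbfb ranked highest. At the 120 Foxp3 peaks with a Cbfb position of rank 1 to 1000, Ets1 was present at 107 in Treg (89.2%, 82.2 to 94.1) and at 111 in CD4 (92.5%, 86.2 to 96.5). Elf1 was present at 71 (59.2%, 49.8 to 68.0) and 79 (65.8%, 56.6 to 74.2) of them. None of the 120 lacked all 4 lists, which allows a share of up to 2.5% at a floor of 3 counts and of up to 3.03% by the exact interval. At Cbfb ranks between 1000 and 2500 the Ets1 shares were lower, 64.5% (51.3 to 76.3) in Treg and 74.2% (61.5 to 84.5) in CD4, and at ranks between 5000 and 10000 they were 76.8% (67.2 to 84.7) and 79.8% (70.5 to 87.2), so they did not decline steadily below the top class. Outside the rule, at Cbfb ranks between 10000 and 20000, the Ets1 shares were 68.4% (58.2 to 77.4) in Treg and 73.5% (63.6 to 81.9) in CD4. Past rank 20000 they were 67.3% (63.2 to 71.2) and 77.5% (73.8 to 80.9). Peaks with weaker Cbfb thus had Ets1 about as often as those of Cbfb ranks between 1000 and 2500. At the 1916 Foxp3 peaks with no position of the Cbfb list the Ets1 shares were 55.9% (53.7 to 58.2) and 66.6% (64.5 to 68.8).

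**Figure D3:**
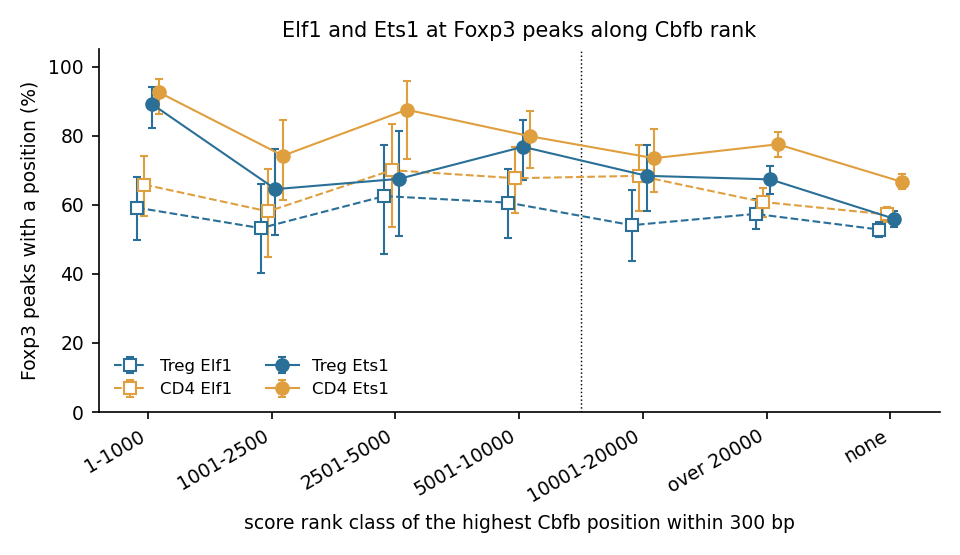
Share of Foxp3 peaks (%) with an Elf1 (open squares, dashed) or Ets1 (filled circles, solid) position in Treg (blue) or CD4 (orange), by the rank class of the highest Cbfb position within 300 bp; error bars are exact 95% intervals and the dotted line marks the limit at 10000. Ets1 reaches 89.2 and 92.5% in the first class and is lowest, 55.9 and 66.6%, where the Cbfb list had none, while Treg Elf1 lies between 52.8 and 62.5% in every class.

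The limit at 10000 cuts through a continuum of Cbfb scores. The last 2 peaks inside it had Cbfb scores of 4.03 (chromosome 7, 28718539 to 28718739) and 4.01 (chromosome 5, 114282619 to 114282819), and the first 2 outside had 3.995 (chromosome 14, 61328104 to 61328304) and 3.985 (chromosome 12, 81893946 to 81894146). On distance, the last 2 inside had their Cbfb position at 293 and 294 bp (chromosome 2, 13496997 to 13497197, and chromosome 8, 73134135 to 73134335) and the first 2 outside both at 303 bp (chromosome 9, 56266938 to 56267138, and chromosome 11, 86571352 to 86571552). Of the other Foxp3 peaks, 649 had a Cbfb position of lower score within 300 bp, so "other" means without strong Cbfb and not without Cbfb.

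The score that chose the peaks does not equal fold enrichment. Over the 321 peaks the Cbfb fold enrichment, as the authors estimated it, ran from 1.01 to 107 with a median of 4.94 and quartiles of 3.42 and 7.84. At 108 of them (33.6%) it was under 4-fold and at 20 over 20-fold. The 9707 of the 10000 Cbfb positions that lay away from Foxp3 peaks had a higher median fold, 5.75, but a lower median score, 4.67 against 5.29. These are medians over positions, while those of the 321 run over peaks, some of which share a position. The highest single score also lay away from Foxp3 peaks, 373 against 23.7 at the 321. Choosing the 10000 Cbfb positions by fold enrichment in place of score gave only 50 Foxp3 peaks, 23 of them among the 321, and a Treg Ets1 difference of 13.2 points whose interval (-0.424 to 23.5) included 0. With the 213 peaks of at least 4-fold Cbfb alone the Ets1 difference stayed within the intervals above in both cell types.

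Only 293 of the 10000 Cbfb positions (2.93%) lay at a Foxp3 peak, and ETS positions were far more common there than at the rest. Treg Ets1 was within 300 bp of 224 of them (76.5%, 71.2 to 81.2) and of 262 of the 9707 others (2.70%, 2.39 to 3.04). For Treg Elf1 the shares were 58.7 and 2.25%, for CD4 Ets1 83.6 and 2.84%, and for CD4 Elf1 66.9 and 2.38%. Of the positions away from Foxp3 peaks, 450 (4.64%, 4.23 to 5.07) had any of the 4 ETS lists nearby, against 281 of 293 (95.9%, 93.0 to 97.9). Over all Foxp3 peaks the shares of the 4 lists were 61.0, 54.4, 70.9 and 59.2% in the same order. Only 10.3% of all Foxp3 peaks, and 11.1% of those without strong Cbfb, lacked all 4. ETS positions were thus common at Foxp3 peaks with or without strong Cbfb.

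Combining the 4 ETS lists, peaks with strong Cbfb were more often fully occupied and less often bare. All 4 lists had a position at 129 of the 321 (40.2%, 34.8 to 45.8) and at 714 others (27.8%, 26.1 to 29.6), against 29.2% of all Foxp3 peaks. None of the 4 did at 11 (3.43%, 1.72 to 6.05) and at 285 others (11.1%, 9.92 to 12.4), against 10.3% of all. Ets1 in both cell types was found at 222 (69.2%, 63.8 to 74.2) and 1221 (47.6%, 45.7 to 49.6), against 50.0% of all, a difference of 21.6 points (16.0 to 26.7). Elf1 in both was found at 155 (48.3%) and 1147 (44.7%), against 45.1% of all, a difference of 3.57 points (-2.18 to 9.35). When every deposited position was counted, whatever its score, none of the 321 peaks lacked Elf1 and Ets1 altogether. That allows a share of up to 0.935% at the same floor of 3 counts. A position of both factors in both cell types was found at 274. Positions of any score were common at the other 2565 peaks too. There Treg Elf1 had one at 2208, Treg Ets1 at 2361, CD4 Elf1 at 2386 and CD4 Ets1 at 2438. At the 321 the numbers were 293, 306, 311 and 317 in the same order. Neither combined count was taken for the other peaks, so neither is read as a difference between the groups.

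ETS binding limited to one cell type was no more common at peaks with strong Cbfb. Elf1 or Ets1 was present in Treg and neither in CD4 at 26 of the 321 (8.10%, 5.36 to 11.6) and at 230 others (8.97%), against 8.87% of all Foxp3 peaks. In the other direction the numbers were 31 (9.66%, 6.66 to 13.4) and 304 (11.9%), against 11.6%. Both differences, -0.867 points (-3.64 to 2.79) and -2.19 points (-5.26 to 1.72), had intervals that included 0. Ets1 taken alone was less often limited to CD4 with strong Cbfb, at 49 peaks (15.3%) against 555 others (21.6%), a difference of -6.37 points (-10.3 to -1.76). Ets1 in Treg only differed by -2.54 points (-5.46 to 1.24). Elf1 in Treg only differed by 1.47 points (-1.67 to 5.46) and Elf1 in CD4 only by 3.45 points (-0.526 to 8.13).

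Strength pointed the same way as presence. With all deposited positions counted, the highest Treg Ets1 position at a peak with strong Cbfb had a median rank of 2818 (interval of the median over peaks 2289 to 3313), against 6947 (6282 to 7551) at other peaks. In these medians a peak with no position took the rank after the last of the list, so they mix presence with strength. For Treg Ets1 that held for 15 peaks with strong Cbfb and 204 others, and for Treg Elf1 for 28 and 357. In CD4 the Ets1 medians were 2377 (1926 to 2794) and 5418 (5052 to 5790). The Treg Elf1 medians, 7034 (5718 to 8862) and 8336 (7798 to 9116), had overlapping intervals, and those of CD4 Elf1, 6730 (5995 to 7686) and 8253 (7932 to 8642), did not. Ets1 ranked ahead of Elf1 in its own library at 220 peaks with strong Cbfb in Treg (68.5%, 63.1 to 73.6) and at 1352 others (52.7%, 50.8 to 54.7). In CD4 it did so at 246 (76.6%, 71.6 to 81.2) and 1502 (58.6%, 56.6 to 60.5). The ranks of Ets1 and Elf1 come from different libraries of unknown depth, so only the contrast between the peak groups is read.

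In fold enrichment the pattern was similar. Treg Ets1 had a median of 7.32-fold (6.56 to 8.39) at 306 peaks with strong Cbfb and 5.55-fold (5.42 to 5.99) at 2361 others with an Ets1 position. CD4 Ets1 had 10.4-fold (9.31 to 11.4) and 8.23-fold (8.01 to 8.50). For Elf1 the medians were 11.3-fold (9.97 to 12.2) and 10.6-fold (10.3 to 11.3) in Treg, and 12.1-fold (10.9 to 14.2) and 11.2-fold (10.6 to 11.6) in CD4, with overlapping intervals in both cell types.

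Whether strong Cbfb went with a shift of ETS binding between the cell types was compared next. At Foxp3 peaks with Ets1 in both libraries at a false discovery rate (FDR) of at most 0.01, the log2 of Treg over CD4 fold enrichment for Ets1 had a median of -0.48 (SD over peaks 0.96, n = 287) with strong Cbfb and -0.53 (SD 1.10, n = 1924) without. The medians differed by 0.04, with -0.07 to 0.17 from the interval of the first median alone. For Elf1 the medians were -0.20 (SD 1.07, n = 274) and -0.22 (SD 1.08, n = 2025), a difference of 0.02 (-0.14 to 0.12). For both factors the sign of this difference depended on the setting. Enrichment was lower in the Treg library at 209 of 287 peaks with strong Cbfb for Ets1 (72.8%) and at 71.1% of others. Libraries of unknown depth and control set the level of these ratios, so only the contrast between the peak groups is read, and Cbfb in CD4 cells is not known here.

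**Figure D4:**
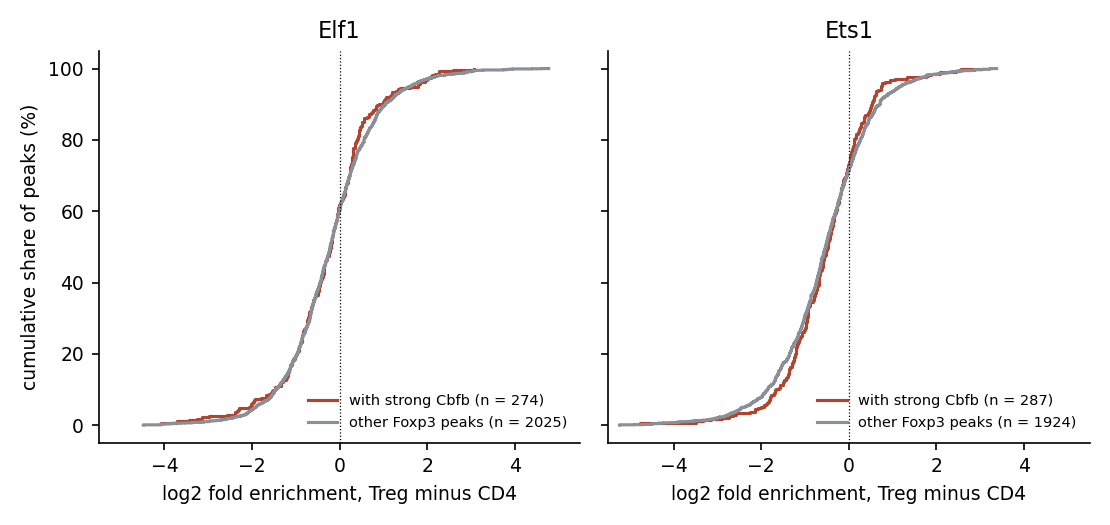
Cumulative share of Foxp3 peaks (%, vertical axis) against the log2 of Treg over CD4 fold enrichment (horizontal axis) for Elf1 (left) and Ets1 (right), with strong Cbfb (red) and without (grey); each curve runs over the peaks with the factor at an FDR of at most 0.01 in both libraries. The 2 curves lie on each other for both factors, with medians of -0.20 and -0.22 for Elf1 and -0.48 and -0.53 for Ets1.

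Cbfb sat near the centre of the Foxp3 peak, as the ETS factors did. The Cbfb position lay at a median of 52 bp from the midpoint (quartiles 23 and 102), within a rule that allowed 300. The highest CD4 Ets1 position of the same peaks lay at a median of 45 bp (40 to 50) and CD4 Elf1 at 49 bp (41 to 55), while Treg Elf1 lay at 60 bp (52 to 68) and Treg Ets1 at 65 bp (57 to 71). These distances were close to those at other Foxp3 peaks, where the medians were 48, 46, 61 and 68 bp in the same order. Of the Ets1 positions, 73.5% in Treg and 82.3% in CD4 lay within 100 bp of the midpoint, against 64.9 and 74.8% at other peaks. Measured from the Cbfb position itself, CD4 Ets1 was the nearest, at a median of 52 bp (48 to 59), and lay within 50 bp at 152 of 317 peaks (47.9%). Treg Ets1, Treg Elf1 and CD4 Elf1 lay at medians of 72.5 bp (61 to 80), 74 bp (67 to 88) and 73 bp (62 to 83), which overlap.

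**Figure D5:**
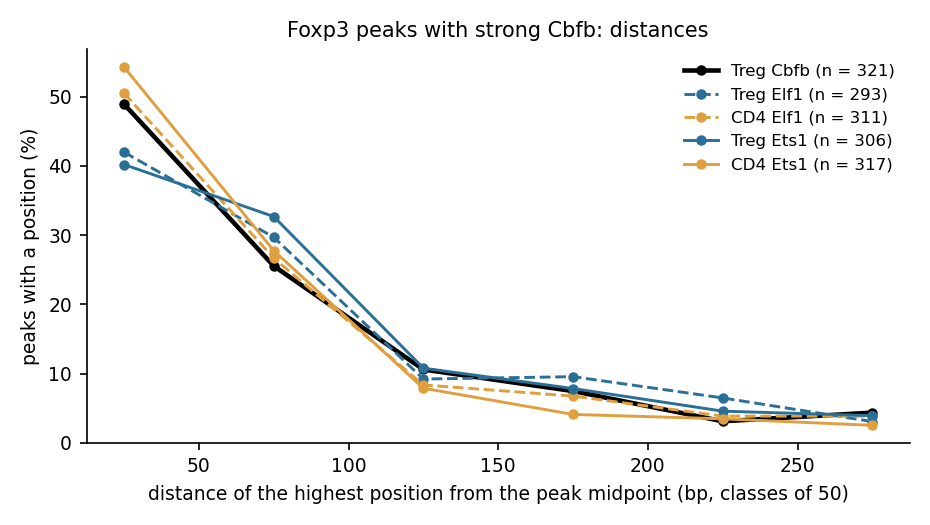
Share (%) of the Foxp3 peaks with strong Cbfb that have their highest-scoring position of each library in each 50 bp class of distance from the peak midpoint (horizontal axis, bp); the Cbfb line (black) covers 321 peaks and the Elf1 and Ets1 lines those with a position. All 5 lines are highest in the first class, between 40.2% for Treg Ets1 and 54.3% for CD4 Ets1, and most positions lie within 100 bp; every line ends at 300 bp by construction.

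The peaks with strong Cbfb were spread over the genome much as Foxp3 peaks are. Each of the 19 numbered chromosomes held between 4 (chromosome 18) and 28 (chromosome 1) of them. The share of Foxp3 peaks with strong Cbfb ran from 6.15% (1.70 to 15.0) on chromosome 18 to 14.3% (9.17 to 20.8) on chromosome 5, with overlapping intervals. On chromosome X it was 5 of only 22 Foxp3 peaks (22.7%, 7.82 to 45.4), too few to set apart. Some of the deposited Foxp3 intervals overlap each other, 153 of all 2886. This was more common with strong Cbfb: 39 of 321 (12.1%, 8.78 to 16.2) overlapped another Foxp3 interval, against 114 of the others (4.44%, 3.68 to 5.32). Peaks that overlap can share a Cbfb position, and the 321 peaks had 290 different ones as their highest. Counting 1 Foxp3 peak per Cbfb position left the Ets1 differences inside the intervals given above.

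With neighbours at most 10 kb apart taken as a cluster, 137 of the 321 (42.7%, 37.2 to 48.3) lay in clusters of Foxp3 peaks, against 981 of the others (38.2%, 36.4 to 40.2). A second peak with strong Cbfb was in the same cluster for 73 of the 321. In 5 clusters there were 3. On chromosome 1 (69815453 to 69815930) and in the middle of a cluster on chromosome 11 (52127646 to 52128110), the 3 were overlapping intervals around a single Cbfb position. That of chromosome 1, at 69815673, had rank 1962 and 7.84-fold enrichment with Treg Elf1 alone among the 10000 highest. That of chromosome 11, at 52127839, had rank 264 and 4.85-fold, with Ets1 at rank 1830 in Treg and 666 in CD4.

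The other 3 such clusters each held 2 separate Cbfb positions. On chromosome 2 (32348834 to 32351002) all 3 peaks had all 4 ETS lists; Cbfb had rank 154 and 11.3-fold at 32350857, and rank 3147 and only 1.66-fold at 32349143. On chromosome 12 (81214206 to 81216874) Cbfb lay at 81214368 (14.8-fold) and 81216742 (4.70-fold). The highest CD4 Ets1 position of the first peak, rank 192 at 81214060, lay more than 300 bp from that peak's Cbfb position. The overlapping peak with the same Cbfb position had CD4 Ets1 at rank 3863, at 81214402. On chromosome 7 (150190748 to 150194812) Cbfb was weakly enriched at both places, 2.21-fold at 150190891 and 3.36-fold at 150194542.

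The single peak with the highest Cbfb score lay on chromosome 11 (106020738 to 106020938), with Cbfb 107-fold enriched at rank 14 and all 4 ETS lists present. Those lists ranked it far lower: Treg Ets1 had rank 3210 there, CD4 Ets1 2119, CD4 Elf1 3090 and Treg Elf1 9987. The second lay on chromosome 16 (57391577 to 57391777), where Cbfb was at 57391745 with 4.51-fold enrichment (lower bound 2.47). Treg Ets1 lay 2 bp from it and CD4 Ets1 1 bp, at rank 274, while neither Elf1 library had a position among its 10000 highest. The third, on chromosome 11 (32482925 to 32483125), likewise had only Ets1 among the 10000 highest, at ranks 119 in Treg and 67 in CD4, beside 13.1-fold Cbfb at 32483073. Elf1 lay past that limit there, at rank 13125 in Treg and 13132 in CD4, the CD4 position 2 bp from Cbfb.

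The fourth peak, on chromosome 9 (61527530 to 61527730), was strongly bound by every factor. Cbfb was at 61527625 with 81.0-fold enrichment (lower bound 14.1), Treg Ets1 11 bp away at rank 49 with 41.9-fold, and CD4 Ets1 10 bp away at rank 61 with 56.2-fold. Treg Elf1, with 40.0-fold at rank 1269, and CD4 Elf1, with 45.8-fold at rank 3457, lay 82 and 62 bp from Cbfb. In fold enrichment it was one of 4 peaks with strong Cbfb where all 5 libraries were over 20-fold, a group picked after its values were seen. The others lay on chromosome 6 (58794378 to 58794578, Cbfb 54.9-fold), chromosome 16 (23107460 to 23107660, 23.5-fold) and chromosome 15 (75900160 to 75900360, 39.2-fold).

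At the fifth peak, on chromosome 2 (158544984 to 158545184), Ets1 ranked 454 in Treg and 251 in CD4 beside 11.6-fold Cbfb. The sixth, on chromosome 19 (5845447 to 5845647), had Ets1 among the first ranks of both libraries, rank 9 in Treg (22.8-fold) and rank 7 in CD4 (29.5-fold). It had no Treg Elf1 position of any score, and CD4 Elf1 only at rank 18469. The seventh, also on chromosome 19 (12871208 to 12871408), had all 4 lists, with Ets1 at ranks 561 and 885 in Treg and CD4 and Elf1 at 6100 and 4995. Among the 10 highest Cbfb scores, Ets1 was on the Treg list at 9 peaks and on the CD4 list at 9, and Elf1 at 4 and 3. Over all Foxp3 peaks the shares were 61.0 and 70.9% for Ets1 and 54.4 and 59.2% for Elf1. At the 120 peaks of Cbfb rank 1 to 1000 the Elf1 shares were 59.2 and 65.8%, so these 10 peaks do not show that Elf1 is scarce at high Cbfb.

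At the eighth and the ninth peak Ets1 was on the list of one cell type only. On chromosome 8 (114168377 to 114168577) Treg Ets1, at rank 2284 and 10.8-fold, was the only one of the 4 lists, and CD4 Ets1 had rank 24630 and 2.56-fold. On chromosome 5 (139858270 to 139858470) CD4 Ets1, at rank 1203 and 17.2-fold, was alone, and Treg Ets1 had rank 28855 and 8.21-fold. The last of the 10, on chromosome 5 (98412470 to 98412670), had Ets1 at ranks 4871 in Treg and 4305 in CD4 and no Treg Elf1 position of any score.

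The first 2 of these were also the highest Cbfb scores with ETS factors in one cell type alone. On the Treg side they were followed by chromosome 4 (106466952 to 106467152, Cbfb 12.3-fold), where Treg Ets1 had rank 2013 and CD4 Ets1, at rank 10981, missed the limit narrowly, and by chromosome 18 (68387304 to 68387504, Cbfb 4.04-fold), with Ets1 at rank 829 in Treg and 14606 in CD4. On the CD4 side followed chromosome 1 (145853724 to 145853924), where CD4 Ets1 had rank 2925 and Treg Ets1 11183, and chromosome 13 (55470910 to 55471110), where CD4 Ets1 had rank 1817 and Treg Ets1 109502. All of these had a lower-ranked position of at least one ETS factor in the other cell type, so they differ in rank and not in the plain presence of a position.

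The 3 peaks with the lowest sum of the 4 ETS ranks were picked by Elf1 and Ets1 alone, and Cbfb varied among them. On chromosome 13 (59871196 to 59871396) Elf1 ranked 802 in Treg and 229 in CD4 and Ets1 261 and 447, with Cbfb at rank 75 and 7.84-fold at 59871296, the midpoint of the Foxp3 peak. On chromosome 12 (85584090 to 85584290) the ranks were 80 and 98 for Elf1 and 483 and 1134 for Ets1, with Cbfb at rank 244 and 6.10-fold. On chromosome 6 (48658116 to 48658316) Elf1 ranked 415 and 990 and Ets1 756 and 269, but Cbfb only 5594, with 1.92-fold enrichment and a lower bound of 0.561.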

How the data were processed

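The submitters' processing notes name Bowtie 0.12.7 and the build mm9. The authors deposited Foxp3 intervals (200 bp, no score) from combined replicates, per the labels. For the other 5 libraries the authors deposited single-base positions. Their columns, per the file headers, hold fold enrichment with a lower bound, FDR (q-value), E-value and score. The caller, its thresholds, the control and the read depth are not given in the sources used here, so depth could not be weighed and values rank positions within a library.

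Positions were ranked by score, ties by chromosome and coordinate (32 tied at the Cbfb limit, 26 taken). The highest-ranking position within 300 bp of a peak midpoint stood for its library. Shares have exact Clopper-Pearson 95% intervals, differences Newcombe intervals, and medians order-statistic intervals. A count of 0 is also given the limit that 3 counts would allow. All cover counting or spread over peaks only. The named peaks were the 10 highest Cbfb scores, the 3 lowest summed Elf1 and Ets1 ranks, the 3 highest Cbfb scores with ETS factors in one cell type only for each, the peaks next to the limits of the rule, and clusters with 3 or more. The peaks, rules and comparisons were chosen with earlier results of these data known. Motif counts and gene lists were planned but not run, since the gene and promoter tables at hand are on another build than mm9, so no gene names or sequences are given. The functions were tested on simulated data. Calculations used Python 3.11.15, numpy 2.4.6, pandas 2.3.3, scipy 1.17.1 and statsmodels 0.14.6, and plots matplotlib 3.10.9.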

Additional observations from a re-analysis of the deposited data

How the results depend on the processing

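Of 109 alternative values of the main results, 98 stayed within the interval of the main value (or 1.5 times the count) and 11 moved. Some of the 98 equalled the main value exactly and say nothing about stability. Both settings for ties left the same 321 peaks and the same differences, and the FDR limit left all 4 median ranks unchanged. No difference whose interval lay off 0 changed sign. The small contrast in the Treg over CD4 log2 ratio did: it was 0.02 for Elf1, from -0.13 (at least 4-fold Cbfb) to 0.03, and 0.04 for Ets1, from -0.03 (by score) to 0.08. The number of peaks was 321, but 213 with at least 4-fold Cbfb and 50 by fold enrichment. The Treg Ets1 difference ran from 9.79 points (with positions taken by FDR up to 0.01) to 24.99 (the 5000 highest scores) and was 13.2 with peaks chosen by Cbfb fold. The CD4 Ets1 difference was 8.19 and 24.6 under the first pair. Treg Elf1 ran from 2.50 to 7.73 points, with an interval above 0 in 2 of 16 alternatives, and CD4 Elf1 from 3.57 to 8.50, in 12 of 16. Within 100 bp the median ranks became 4579 (Treg Ets1), 2997 (CD4 Ets1), 12794 (Treg Elf1) and 8682 (CD4 Elf1), and at other peaks 21722, 7990, 20827 and 10041. Peaks with no position within 100 bp were again placed after the last rank. Of 17 named peaks, 2 were also chosen by fold. Settings for ties, chromosome X, Cbfb over 20-fold, comparison peaks without Cbfb at an FDR up to 0.01 and 1 peak per Cbfb position were chosen after seeing the data. No replicate could be left out, since each factor had 1 library. No paired analysis was possible because the groups compared have 1 library each. The depth of the libraries is unknown.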
